A study of Mus musculus with 12 samples.

Results

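The 10 genes described here are Socs1, Socs2, Socs3, Socs5, Socs6, Socs7 and Cish, which encode inhibitors of cytokine signalling, and Cebpb, Cebpd and Nfil3, which encode leucine zipper transcription factors. They were chosen by name, as genes read as a measure of STAT3 activity, and are 10 of the 18876 genes listed in any library. All 10 were listed in the libraries and all 10 passed the filter on low counts that left 13967 genes for testing. The filter asks for 1.02 CPM (counts scaled to a common library size) in at least 3 libraries, and 2 of the 10 genes, Socs1 and Cebpb, passed it without reaching that level in all 3 vehicle libraries. The mice were wild type, and the cells were oligodendrocyte progenitors in primary culture, which can mature into the myelin-forming cells of the brain. All treatments lasted 12 h, and each of the 4 groups had 3 RNA-seq libraries. The first group received 50 µM hemin, 10 ng/mL interleukin-10 (IL-10) and 2.5 µM stattic. The second received 50 µM hemin and 10 ng/mL IL-10, and the third 50 µM hemin alone. The last received vehicle (DMSO). Hemin is heme with its iron oxidised. IL-10 is an anti-inflammatory cytokine, and stattic is a small molecule that blocks the transcription factor STAT3. No group described here had IL-10 or stattic without hemin. The labels give a brain origin for the cells and do not say how many animals or cultures were used, so p-values measure only the spread between these libraries, which may be technical.

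Binding of IL-10 to its receptor chains IL10RA and IL10RB activates the Janus kinases JAK1 and TYK2, which phosphorylate STAT3. Phosphorylated STAT3 enters the nucleus and switches on genes that include Socs3. The SOCS3 protein binds certain cytokine receptors and their kinases and limits the signal of those receptors. SOCS proteins carry an SH2 domain and a SOCS box that recruits a ubiquitin ligase. CISH and SOCS1 to SOCS3 are the classical feedback inhibitors of cytokine receptors, whereas SOCS5, SOCS6 and SOCS7 have longer amino-terminal regions and are known mainly from growth factor and insulin signalling. C/EBPβ and C/EBPδ drive acute phase and inflammatory genes and are themselves induced by cytokines and by cell stress. NFIL3 is a repressor that recognises the same DNA element as the PAR factors of the circadian clock. In oligodendrocytes SOCS3 is known to limit the response to cytokines of the interleukin-6 family.

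RefSeq promoter windows, of 250 bases before and 50 after the gene start on GRCm38.p6, were at hand for 5 of the 10 genes: Socs1, Socs3, Cish, Cebpb and Nfil3. Both strands were searched for 4 motifs: TTCNNNGAA, the letters read by STAT proteins; TGACG, the core of the cAMP response element; TTGCNNAA, read by C/EBP proteins; and TTACNTAA, read by NFIL3 and PAR factors. The first is shown for Socs3 and Cish, the feedback inhibitors whose windows hold it, and the second for Cebpb and Nfil3, the factors with the largest differences below. Capitals mark the matches, and each sequence is written along the strand of its gene. The Socs3 stretch is chr11:117969367-117969616 on the minus strand, the Cish stretch is chr9:107296654-107296683 on the plus strand, the Cebpb stretch is chr2:167688665-167688914 on the plus strand, and the Nfil3 stretch is chr13:52981040-52981289 on the minus strand.
Socs3: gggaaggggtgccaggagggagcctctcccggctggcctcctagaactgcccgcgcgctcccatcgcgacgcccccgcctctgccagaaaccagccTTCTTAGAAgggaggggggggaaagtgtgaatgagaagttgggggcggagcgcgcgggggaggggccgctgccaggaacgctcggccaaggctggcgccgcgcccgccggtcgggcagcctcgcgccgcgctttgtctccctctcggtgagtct
Cish: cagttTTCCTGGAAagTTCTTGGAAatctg
Cebpb: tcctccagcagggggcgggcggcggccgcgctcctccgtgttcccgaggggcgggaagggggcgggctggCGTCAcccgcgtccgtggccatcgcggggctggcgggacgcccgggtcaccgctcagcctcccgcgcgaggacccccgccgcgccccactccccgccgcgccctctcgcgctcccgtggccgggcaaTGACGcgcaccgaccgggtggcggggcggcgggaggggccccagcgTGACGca
Nfil3: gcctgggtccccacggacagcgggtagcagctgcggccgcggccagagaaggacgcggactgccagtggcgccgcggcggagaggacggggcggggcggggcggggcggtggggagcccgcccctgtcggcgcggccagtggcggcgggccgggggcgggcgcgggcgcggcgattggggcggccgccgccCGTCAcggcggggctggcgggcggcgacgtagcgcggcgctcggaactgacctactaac

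The Socs3 window held 1 match to TTCNNNGAA, starting at position -154 from the gene start, and the Cish window held 2, starting at positions 1 and 12. Of all 32851 windows of the same length, 8.298% held at least 1 such match and 0.457% held 2 or more. Cebpb held 3 matches to TGACG, at -180, -53 and -7, of which the first reads on the opposite strand. Nfil3 held 1, at -59 on the opposite strand, and Cish held 1, at -97 and outside the stretch shown. TGACG occurred in 20.812% of all windows, and 3 or more copies in 1.035%. No window of the 5 genes held TTGCNNAA, found in 10.797% of all windows, or TTACNTAA, found in 2.323%, and the Socs1 window held none of the 4 motifs. No 2 matches overlapped. A match is only a run of letters, and its absence says only that these letters are not in this window.

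Library totals lay between 9404448 and 10266653 expected counts, with 15051 to 16899 genes listed. The defining markers of the labelled cell type were present in every library, with none of 8 progenitor genes at 0. Their summed level was lower with hemin, at 1752 to 2544 CPM in hemin libraries, against 4645 to 6587 CPM in vehicle libraries, and 3 of the 8 fell. In such bulk samples, fewer cells of a type and less RNA per cell cannot be told apart. The 15 microglia and macrophage markers summed to 146, 268 and 159 CPM with stattic, 88.4, 50.9 and 43.6 CPM with hemin and IL-10, 333, 126 and 90.5 CPM with hemin, and 57.1, 54.7 and 14.9 CPM with vehicle, with at most 1 of the 15 at 0 in a library. Of 14 microglia and macrophage markers tested, 4 rose with hemin against vehicle and 0 fell, with a median log2 fold change of 1.93. Whether each of them reached the filter's level in vehicle libraries was not examined, so that count is no support for a direction. The 10 endothelial, mural and fibroblast markers summed to 68.0 to 188 CPM in hemin libraries, against 7.43 to 22.7 CPM in vehicle libraries. Up to 2 of the 10 were at 0 in a vehicle library, and 6 of the 9 tested rose. At the lowest vehicle sum the tested markers cannot all have reached the filter's level, so this count is no support for a direction. The 8 markers of differentiating oligodendrocytes summed to 320 to 1779 CPM in hemin libraries, against 2392 to 6477 CPM in vehicle libraries, and 1 of the 7 tested fell. Stattic replicate 2 stood apart for these, at 10821 CPM beside 1452 and 3158 CPM in the other stattic libraries. Of 8 neuron markers 3 rose, and of 8 astrocyte markers 1 fell, with summed levels of 1913 to 2625 CPM in hemin libraries, against 2248 to 5963 CPM in vehicle libraries. Beside these counts, 11.7% of all genes tested were called higher with hemin than with vehicle and 9.15% lower. The part of these cell types in the results below was not tested. Longer transcripts were measured lower in the hemin-treated libraries. Between the shortest quintile of genes (median 1333 bases) and the longest quintile (median 6776 bases), the shift relative to vehicle was -1.93 on the log2 scale in stattic replicate 3 and -0.89 in hemin replicate 1, and between -0.41 and -0.15 in the other 7 hemin-treated libraries.

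Levels of the 10 genes can be set against each other only per length, as the authors' FPKM. In vehicle cells the transcripts of the longer SOCS proteins led: Socs7 averaged 9.91 FPKM, Socs5 8.45, Nfil3 8.27 and Socs6 7.62, and these 4 genes' libraries overlapped in rank order. Socs3 (4.83 FPKM), Cebpd (3.92) and Socs2 (2.10) followed below a gap, and Cebpb (0.887), Socs1 (0.880) and Cish (0.683) lay below another. In hemin cells the order was different. Longer transcripts were measured lower in the hemin-treated libraries, as stated above, and these FPKM values were not corrected for that trend. Its part in the changed order was not tested. Nfil3 stood first at 33.9 FPKM, above every library of Cebpb at 25.0 and Socs5 at 21.8, which overlapped. The margin was narrow, with the lowest Nfil3 library at 31.79 FPKM and the highest Cebpb library at 31.75 FPKM. Socs3 followed at 11.5 FPKM and Socs6 at 8.55, each apart from its neighbours. Socs7 (6.31 FPKM), Cebpd (5.58), Socs1 (2.95) and Socs2 (2.20) came next, and neighbours among them overlapped. Cish was last at 1.12 FPKM, below every Socs2 library.

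**Figure D1:**
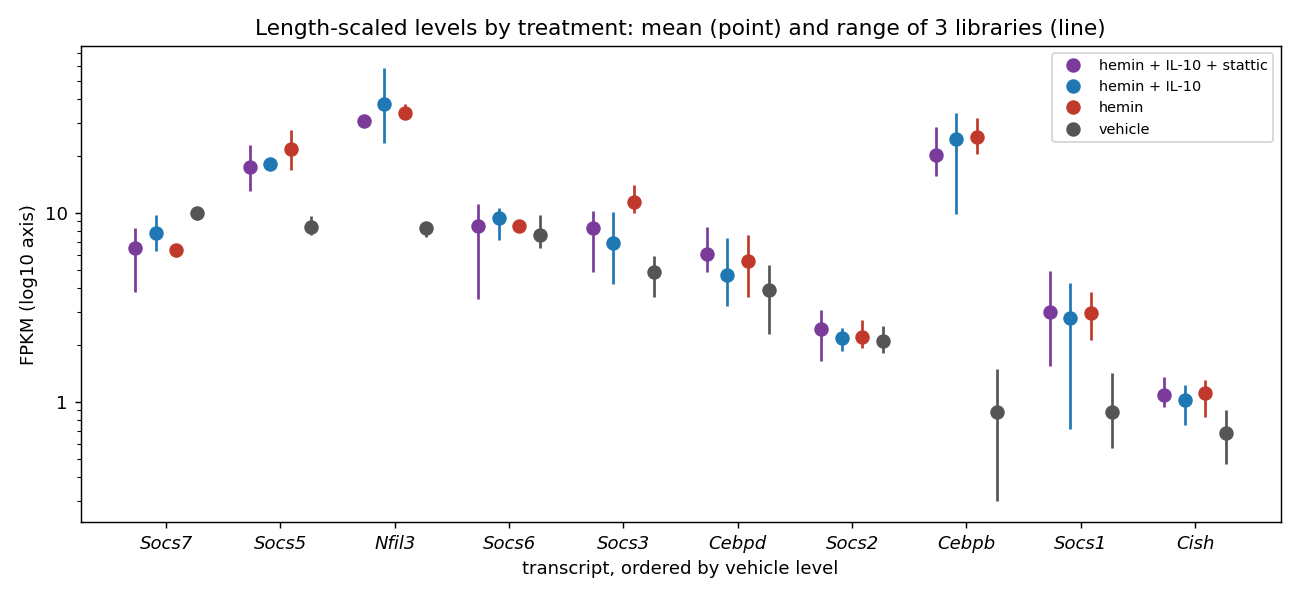
Deposited FPKM of the 10 genes in each group on a log axis, with points for the mean and lines for the range of 3 libraries, and genes ordered by their vehicle level. Cebpb lies at 25.0 FPKM in hemin cells, beside Socs5, and at 0.887 FPKM in vehicle cells, beside Socs1 and Cish.

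Hemin was set against vehicle to ask which of these genes move when progenitor cells are exposed to heme. Cebpb, Nfil3, Socs5 and Socs3 rose, so 4 of the 10 genes were called higher and 0 lower at an adjusted p of 0.05 (edgeR's quasi-likelihood test, Benjamini-Hochberg over all genes). Among all genes tested 20.9% were called, with 11.7% higher and 9.15% lower. The median log2 fold change of the 10 genes was 1.08, beside 0.03 for all genes. For 8 of the 10 the hemin and vehicle libraries did not overlap, which was so for 50.1% of all genes. Cebpb and Socs1 missed the filter's level in at least 1 vehicle library and passed through hemin-treated ones. The count of risers and the median are therefore no support for a direction of the 10 genes as a set.

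**Figure D2:**
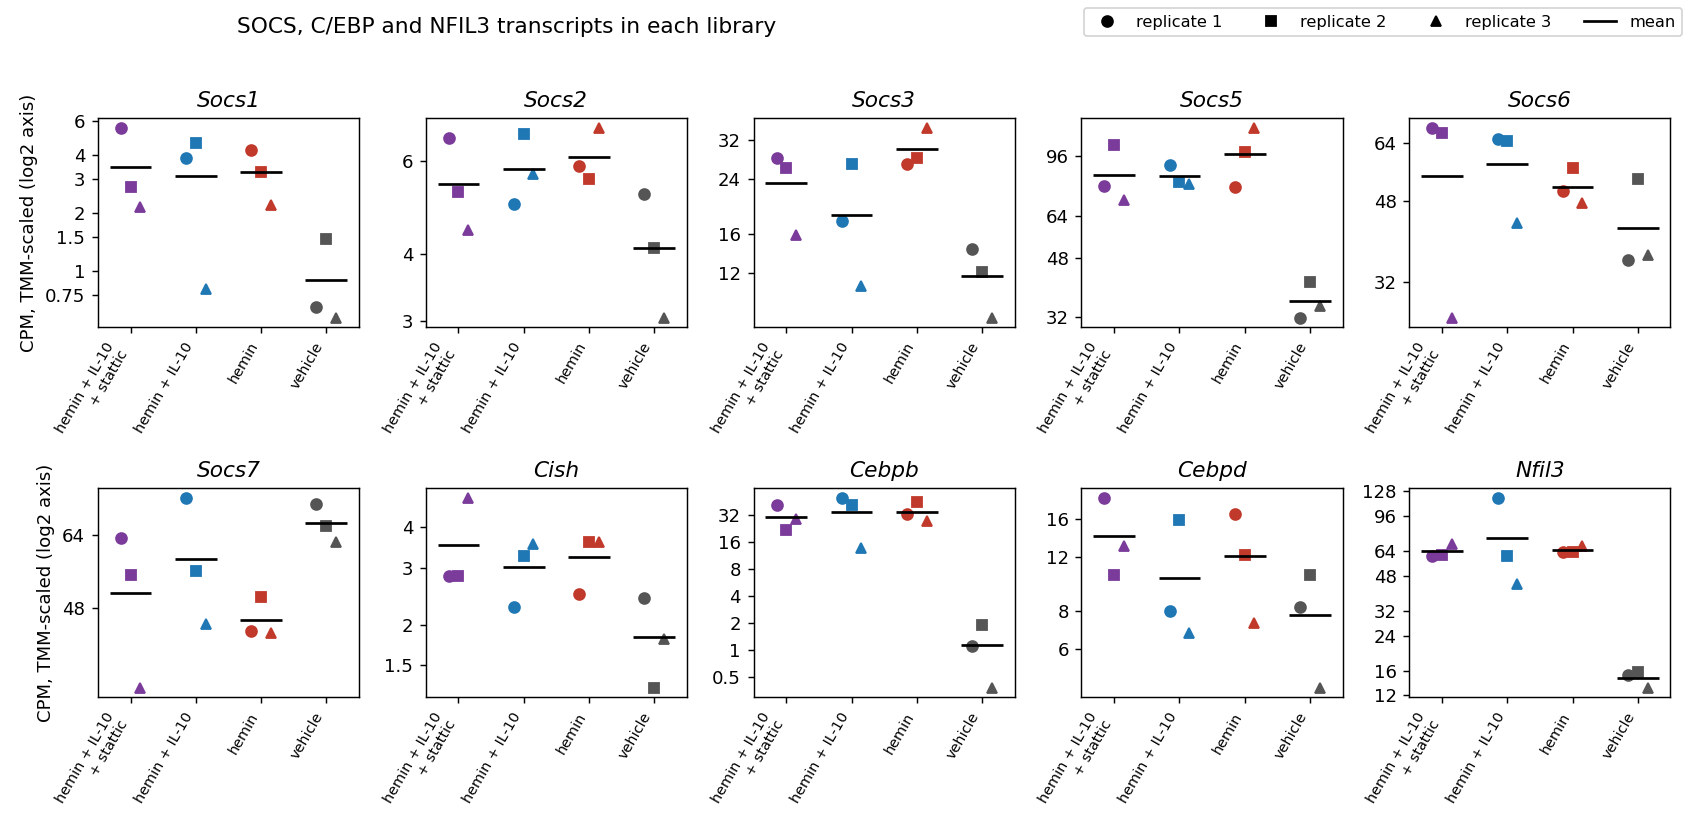
CPM of the 10 genes in all 12 libraries on log axes, 1 panel per gene, with points for libraries, bars for the mean of 3 and groups from stattic on the left to vehicle on the right. Vehicle libraries lie apart from all hemin-treated libraries for Cebpb, Nfil3 and Socs5, while the 3 hemin-treated groups overlap.

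Cebpb changed most among the 10. It was measured at 32.4, 45.1 and 27.2 CPM in hemin libraries, against 1.11, 1.92 and 0.381 CPM in vehicle libraries, the last resting on 4 to 21 reads each. Every hemin library lay far above every vehicle library. The log2 fold change was 4.92 ± 0.60 (SE, n = 3 each, adjusted p = 0.000507), with a 95% interval of 3.61 to 6.23. The call held under all 11 other settings and without any of the 12 libraries. Cebpd, the relative of Cebpb that is also known as a target of STAT3, stood at 16.7, 12.2 and 7.31 CPM in hemin libraries, against 8.26, 10.5 and 4.48 CPM in vehicle libraries. Its groups overlapped, and its log2 fold change of 0.64 had an interval of -0.32 to 1.59 (adjusted p = 0.327).

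Nfil3 was measured at 63.3, 63.2 and 67.9 CPM in hemin libraries, against 15.2, 15.7 and 13.1 CPM in vehicle libraries. Both groups were tight and lay far apart. Its log2 fold change was 2.14 ± 0.31 (SE, n = 3 each, adjusted p = 0.00135), called under all 11 settings and without any library.

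Of the classical feedback inhibitors, Socs3 passed the test. It was measured at 26.9, 28.0 and 35.1 CPM in hemin libraries, against 14.4, 12.2 and 8.66 CPM in vehicle libraries, and the groups did not overlap. Its log2 fold change was 1.35 ± 0.35 (SE, n = 3 each, adjusted p = 0.0180). The call held under all 11 settings but rested on 4 libraries: the adjusted p was 0.0571 or 0.0785 when vehicle replicate 2 or 3 was left out, and 0.0516 or 0.0522 when hemin replicate 2 or 3 was. Socs1, whose product inhibits Janus kinases directly, was scarce, with 6 to 53 reads per library. It stood at 4.26, 3.28 and 2.20 CPM in hemin libraries, against 0.649, 1.46 and 0.571 CPM in vehicle libraries. The groups did not overlap, and the log2 fold change of 1.84 had an interval of 0.40 to 3.29 but did not pass (adjusted p = 0.0652). It passed in DESeq2 (adjusted p = 0.0290), with the replicate number as a block (0.0207), in a fit of the hemin and vehicle libraries alone (0.0271) and without IL-10 replicate 3 (0.0304).

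Cish, a textbook target of STAT5, had 14 to 41 reads per library. It was measured at 2.48, 3.59 and 3.61 CPM in hemin libraries, against 2.41, 1.28 and 1.81 CPM in vehicle libraries. The groups were separated by a narrow gap, and the log2 fold change was 0.81 with an interval of -0.08 to 1.70 (adjusted p = 0.175). Socs2, an inhibitor of growth hormone signalling, had 5.85, 5.53 and 6.91 CPM in hemin libraries, against 5.20, 4.11 and 3.05 CPM in vehicle libraries. Its groups did not overlap either, and its log2 fold change of 0.56 did not pass (interval -0.13 to 1.26, adjusted p = 0.225). Per length the groups overlapped, at 1.92 to 2.72 FPKM (mean 2.20) in hemin cells and 1.8 to 2.51 FPKM (mean 2.10) in vehicle cells. The length listed for Socs2, by which FPKM is scaled, differed between groups.

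The length listed beside Socs2 was singled out after its values were seen. It was 2192, 2146 and 2263 bases in stattic libraries, 2665, 2847 and 2702 bases with hemin and IL-10, 3002, 2925 and 2786 bases with hemin, and 2361, 2339 and 1964 bases with vehicle. Hemin libraries lay above all vehicle libraries, as did those with hemin and IL-10, and stattic libraries lay below both groups given hemin without stattic. Among 10547 genes whose listed length varied, 10.1% were longer without overlap in hemin than in vehicle, and likewise 10.1% with hemin and IL-10. With stattic 4.24% were shorter without overlap than with hemin and IL-10, and 3.42% than with hemin. With 3 libraries a group an exact two-sided permutation test cannot go below p = 0.1, so that test cannot call such a difference, and no other was run on the lengths. How the authors computed the length is not stated in the sources used here.

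**Figure D3:**
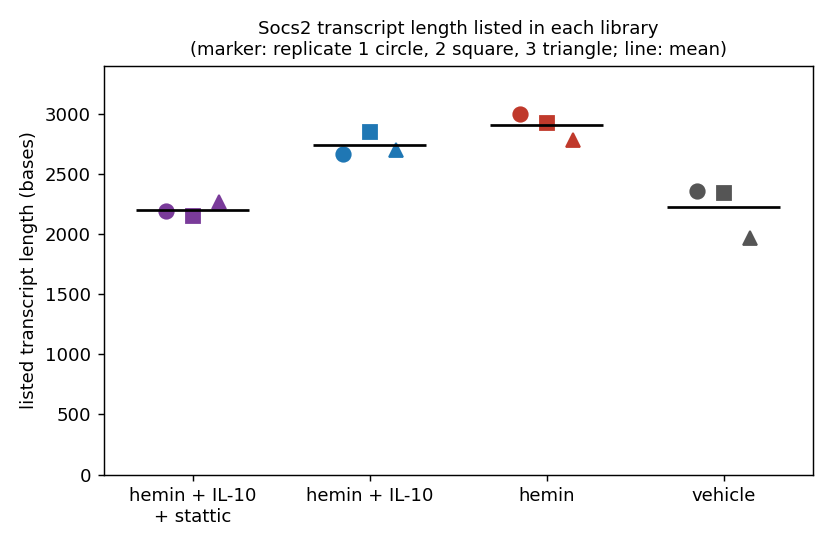
Length in bases listed for Socs2 in each of the 12 libraries, with points for libraries and bars for the mean of 3. The mean is 2200 bases with stattic, 2738 with hemin and IL-10, 2904 with hemin and 2221 with vehicle.

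Among the longer SOCS genes, Socs5, which is linked to degradation of the EGF receptor, rose. It was measured at 77.7, 99.0 and 117 CPM in hemin libraries, against 31.9, 40.7 and 34.6 CPM in vehicle libraries, with no overlap. Its log2 fold change was 1.45 ± 0.22 (SE, n = 3 each, adjusted p = 0.00155), called under all 11 settings and without any library. Socs7 lay the other way, at 43.8, 50.2 and 43.6 CPM in hemin libraries, against 72.6, 66.4 and 62.5 CPM in vehicle libraries. The groups did not overlap, but the log2 fold change of -0.55 did not pass (interval -1.09 to -0.01, adjusted p = 0.134). With the counts corrected for the length trend in each library it was -0.26 (adjusted p = 0.354), and it passed without stattic replicate 3 (adjusted p = 0.0477) and in a fit of the hemin and vehicle libraries alone (0.0274). Socs6, studied mainly in receptor tyrosine kinase signalling, had 50.4, 56.6 and 47.4 CPM in hemin libraries, against 35.8, 53.5 and 36.7 CPM in vehicle libraries, and overlapped. Its log2 fold change was 0.29 (adjusted p = 0.557), and 0.56 with the length correction (adjusted p = 0.133).

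**Figure D4:**
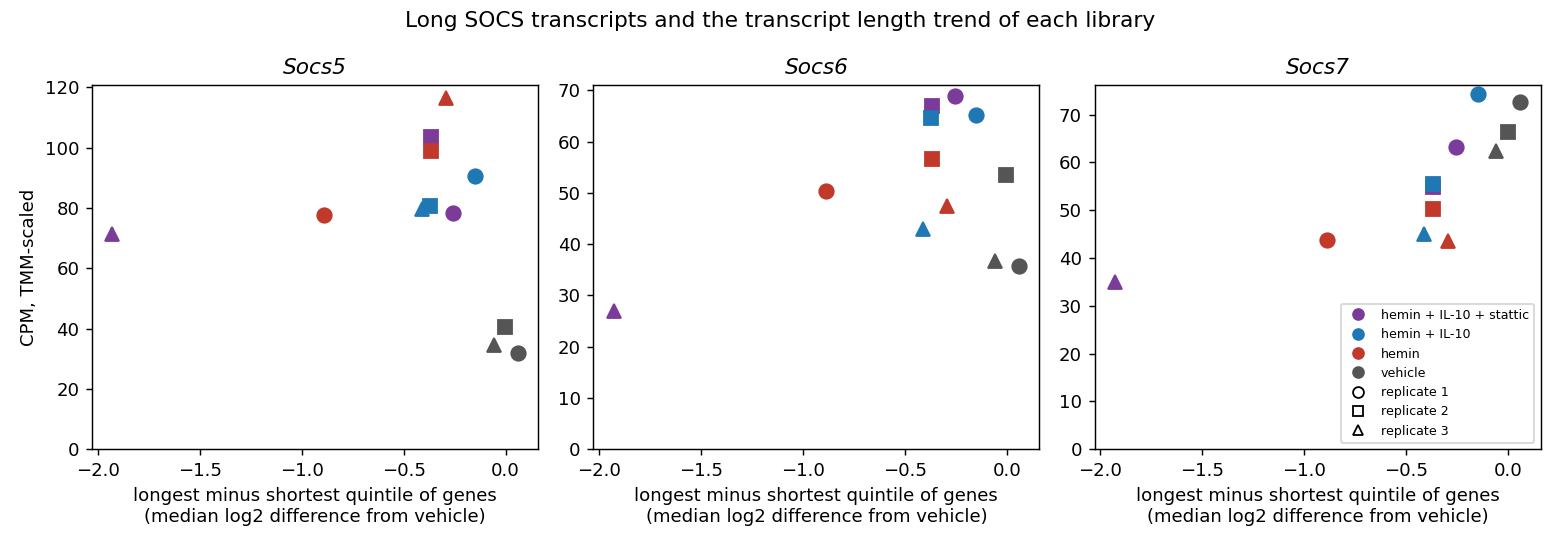
CPM of Socs5, Socs6 and Socs7 in each of the 12 libraries (vertical axes) against that library's shift between the longest and shortest quintile of genes in log2 units (horizontal axes). Stattic replicate 3, at a shift of -1.93, is the lowest hemin-treated library for all 3 genes, while Socs5 is higher in every hemin-treated library than in vehicle libraries.

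Cells given hemin and IL-10 were set against cells given hemin to ask whether IL-10 moved these 10 genes. None of the 10 genes passed edgeR's test, and 0% of all genes did. At an unadjusted p below 0.05 stood 0 of the 10 and 2.41% of all genes, and with the replicate number as a block 1 of the 10, Socs3, and 5.03% of all genes. Across all genes, DESeq2 called 3, edgeR without the filter on low counts 1, edgeR with the replicate number as a block 1, and limma-voom 0. The log2 fold changes of the 10 genes ran from -0.70 for Socs3 to 0.34 for Socs7, with a median of -0.07 beside -0.01 for all genes.

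Socs3, the best known early target of IL-10 and STAT3, was measured at 17.7, 26.7 and 10.9 CPM with hemin and IL-10, against 26.9, 28.0 and 35.1 CPM with hemin. All 3 IL-10 libraries lay below the hemin libraries, by a narrow margin at the nearest pair. It was the single gene of the 10 without overlap in this comparison, beside 8.68% of all genes. The interval of its log2 fold change ran from -1.44 to 0.04 (unadjusted p = 0.0618, adjusted p = 0.999), and the value was -0.43 without IL-10 replicate 3 and -1.06 without IL-10 replicate 2. With the replicate number as a block the log2 fold change of Socs3 was -0.80 ± 0.31 (SE, n = 3 each, edgeR's unadjusted p = 0.0237, adjusted p = 0.864). IL-10 replicate 3 was the lowest of the 3 for 8 of the 10 genes, and for 41.3% of all genes. In the same comparison the microglia and macrophage markers had a median log2 fold change of -1.66, with 9 of the 14 tested at an unadjusted p below 0.05; their part in the Socs3 values was not tested.

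Cebpb was measured at 49.6, 41.4 and 13.5 CPM with hemin and IL-10, against 32.4, 45.1 and 27.2 CPM with hemin, and the groups overlapped. Its log2 fold change was -0.00, with an interval of -1.05 to 1.04. Nfil3, also reported as an IL-10 target in macrophages, had 119, 60.1 and 43.9 CPM with hemin and IL-10, against 63.3, 63.2 and 67.9 CPM with hemin. The IL-10 libraries lay on both sides of the hemin libraries, and the interval was -0.45 to 0.84. Cish had 2.27, 3.26 and 3.53 CPM with hemin and IL-10, against 2.48, 3.59 and 3.61 CPM with hemin, and an interval of -0.96 to 0.78. Socs7 had 74.2, 55.5 and 45.0 CPM with hemin and IL-10, against 43.8, 50.2 and 43.6 CPM with hemin, and the IL-10 libraries reached higher but overlapped the hemin range. Its interval was -0.19 to 0.88. Socs5 had 90.5, 80.8 and 79.6 CPM with hemin and IL-10, against 77.7, 99.0 and 117 CPM with hemin, and the narrowest interval of the 10, from -0.69 to 0.24. Socs6 stood at 42.9 to 65.2 CPM with hemin and IL-10 and at 47.4 to 56.6 CPM with hemin, with overlap. Socs1, Socs2 and Cebpd overlapped as well: Socs1 stood at 0.808 to 4.63 CPM with hemin and IL-10 and at 2.20 to 4.26 CPM with hemin. Socs2 stood at 4.96 to 6.74 CPM with hemin and IL-10 and at 5.53 to 6.91 CPM with hemin, and Cebpd at 6.77 to 15.9 CPM with hemin and IL-10 and at 7.31 to 16.7 CPM with hemin. Over the 10 genes the intervals reached from -1.44, for Socs3, to 1.27, for Socs1.

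**Figure D5:**
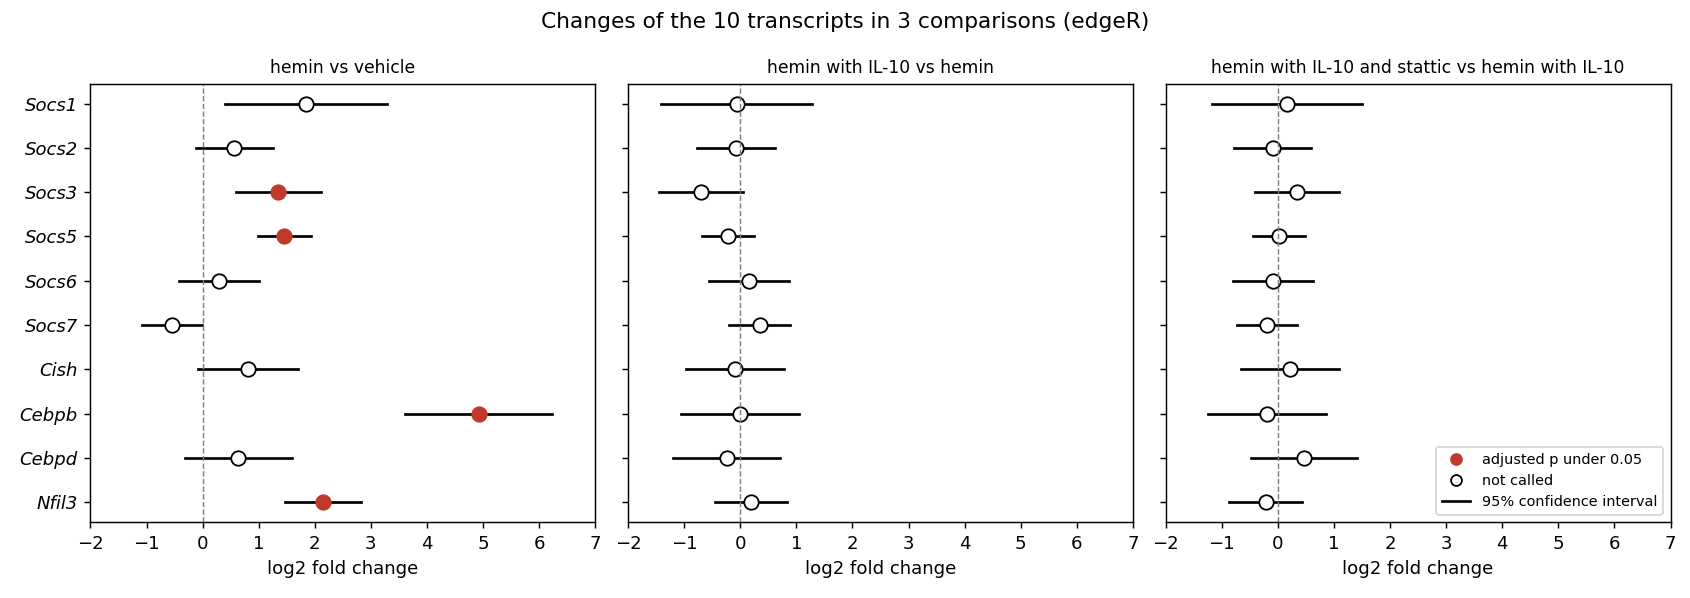
Log2 fold changes (horizontal axes) of the 10 genes with 95% intervals in 3 comparisons (edgeR, 3 libraries per group), with filled points for those called at an adjusted p of 0.05. In the comparison with vehicle Cebpb, Nfil3, Socs5 and Socs3 are filled, and the intervals of all 10 genes cross 0 with IL-10 against hemin and with stattic against IL-10.

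Stattic was added to hemin and IL-10, and that group was set against hemin and IL-10 to ask what STAT3 inhibition changed. None of the 10 genes passed edgeR's test, as for 0% of all genes, and at an unadjusted p below 0.05 stood 0 of the 10 and 3.74% of all genes. DESeq2 and limma-voom called 0 genes as well. The groups overlapped for all 10, while 5.36% of all genes did not overlap. Log2 fold changes ran from -0.22 for Nfil3 to 0.47 for Cebpd, with a median of -0.03 beside 0.02 for all genes.

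Socs3 was measured at 28.1, 26.0 and 16.0 CPM with stattic, against 17.7, 26.7 and 10.9 CPM with hemin and IL-10. The stattic mean was the higher one, and the interval of the log2 fold change of 0.34 ran from -0.40 to 1.08 (adjusted p = 0.921). Cebpd had 18.8, 10.5 and 13.1 CPM with stattic, against 7.99, 15.9 and 6.77 CPM with hemin and IL-10, with an interval of -0.49 to 1.42. Stattic replicate 3, the library with the steepest length trend, was the lowest of its group for 6 of the 10 genes (Socs1, Socs2, Socs3, Socs5, Socs6 and Socs7), and for 38.1% of all genes. The values were 69.0, 67.0 and 26.9 CPM for Socs6 and 63.3, 54.8 and 35.0 CPM for Socs7 with stattic, against 65.2, 64.7 and 42.9 CPM and 74.2, 55.5 and 45.0 CPM with hemin and IL-10. With the length correction the log2 fold change was 0.05 for Socs6 and 0.03 for Socs7, beside -0.08 and -0.19 without it. Neither gene passed with or without the correction, and 0 of all genes did, so the calls say nothing about the trend. The part of the length trend in these values was not tested beyond that. Cish had 2.83, 2.83 and 4.92 CPM with stattic, against 2.27, 3.26 and 3.53 CPM with hemin and IL-10, and an interval of -0.65 to 1.09. Microglia and macrophage markers had a median log2 fold change of 1.92 here, with 9 of the 14 tested at an unadjusted p below 0.05, and their part in these values was not tested. Stattic replicate 1 was the highest of its group for 7 of the 10 genes, and for 31.4% of all genes. Against hemin alone the stattic group gave 0 calls among the 10 genes, beside 0% of all genes; 0 of the 10 and 3.44% of all genes stood at an unadjusted p below 0.05, and the groups overlapped for all 10 genes but not for 5.16% of all genes. DESeq2 and edgeR with the block called 1 gene each there and limma-voom 0, none of them among the 10.

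Against vehicle, both IL-10 groups shared the vehicle libraries with the hemin comparison, so their values stand beside it and are no separate evidence. With hemin, IL-10 and stattic 4 of the 10 genes rose, beside 24.9% of all genes called and 14.7% called higher, and 6 did not overlap with vehicle, beside 41.1%. With hemin and IL-10 3 of the 10 rose, beside 21% of all genes called and 12.1% called higher, and 3 did not overlap, beside 49.2%. Cebpb and Socs1 passed the filter through hemin-treated libraries, so these counts are no support for a direction either. Cebpb had 40.9, 21.6 and 28.7 CPM with stattic, against 1.11, 1.92 and 0.381 CPM with vehicle, a log2 fold change of 4.72 (adjusted p = 0.000691). With hemin and IL-10 its log2 fold change from vehicle was 4.92 (adjusted p = 0.00059). Nfil3 had 60.5, 61.0 and 69.9 CPM with stattic, and its log2 fold change from vehicle was 2.12 with stattic and 2.34 with hemin and IL-10 (adjusted p = 0.00156 and 0.000995). Socs5 had 78.4, 103 and 71.4 CPM with stattic and 90.5, 80.8 and 79.6 CPM with hemin and IL-10, against 31.9, 40.7 and 34.6 CPM with vehicle. Its log2 fold changes were 1.24 and 1.23 (adjusted p = 0.00306 and 0.00353).

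Socs1 was the fourth gene called with stattic, at 5.55, 2.72 and 2.16 CPM, against 0.649, 1.46 and 0.571 CPM with vehicle. Its log2 fold change of 1.95 ± 0.66 (SE, n = 3 each, adjusted p = 0.0488) lost its call when any of 10 of the 12 libraries was left out, with the adjusted p reaching 0.151, and under 7 of the 11 other settings. With hemin and IL-10 it had 3.88, 4.63 and 0.808 CPM and did not pass (log2 fold change 1.78, adjusted p = 0.0739), but passed without IL-10 replicate 3 (0.0218), in DESeq2 (0.0343) and with the block (0.0344). Socs3 had a log2 fold change from vehicle of 0.99 with stattic (adjusted p = 0.0530) and 0.65 with hemin and IL-10 (adjusted p = 0.196). The first passed without stattic replicate 3, at 0.0271, without IL-10 replicate 3, at 0.0327, in DESeq2, at 0.0300, and with the replicate number as a block, at 0.0305. Socs2, Socs6, Socs7, Cish and Cebpd passed in neither comparison.

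The neighbouring genes of the pathway were taken from 6 lists. Their counts for hemin against vehicle stand beside 11.7% of all genes tested called higher and 9.15% called lower. Of 18 receptor, Janus kinase and STAT genes tested, 3 rose with hemin against vehicle and 0 fell, with a median log2 fold change of 0.02. The filter's level was missed in at least 1 vehicle library by 6 of the 18, Stat6 and Il10ra among them, which passed it with the help of hemin-treated libraries. Stat6, the STAT of interleukin-4 signalling, averaged 5.21 ± 3.07 CPM in hemin cells and 0.370 ± 0.156 CPM in vehicle cells (SD, n = 3 each), a log2 fold change of 3.76 (adjusted p = 0.00129). Il10ra, the chain that binds IL-10, had 2.97, 1.54 and 0.501 CPM in hemin libraries, against 0.278, 0.183 and 0.0952 CPM in vehicle libraries (log2 fold change 3.08, adjusted p = 0.0130, and 0.0576 without vehicle replicate 3). Il10ra did not reach the filter's level in vehicle libraries, and the part of the microglia and macrophage markers in its result was not tested. Il10rb averaged 4.92 ± 1.47 CPM in hemin cells and 2.14 ± 0.366 CPM in vehicle cells (SD, n = 3 each, log2 fold change 1.20, adjusted p = 0.0335, up to 0.112 with 1 library left out). Stat3, Jak1 and Tyk2 did not pass edgeR's test with all 12 libraries in any comparison. Stat3 averaged 195 ± 17.3 CPM with stattic, 181 ± 8.03 CPM with hemin and IL-10, 228 ± 63.0 CPM with hemin and 278 ± 68.8 CPM with vehicle (SD, n = 3 each).

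Among 14 other inhibitors and SOCS box partners, 1 rose and 2 fell with hemin, and the median log2 fold change was 0.05. Ptpn6, which encodes the phosphatase SHP-1, rose by 2.84 on the log2 scale (adjusted p = 0.00518). Ptpn6 reached the filter's level in 0 vehicle libraries and passed through hemin-treated ones, so the count of 1 riser is no support for a direction. Ptpn11, which encodes SHP-2, fell by 0.95 (adjusted p = 0.0248, up to 0.0824 with 1 library left out), and Pias3, an inhibitor of STAT3, fell by 0.83 (adjusted p = 0.0356, up to 0.135). Of 19 other genes known to be induced by STAT3, 2 rose and 0 fell, with a median of 0.44. That number of risers is near the share of all genes called higher, 11.7%. Junb averaged 144 ± 17.1 CPM in hemin cells and 5.17 ± 1.46 CPM in vehicle cells (SD, n = 3 each, log2 fold change 4.80, adjusted p = 4.56e-06), and Pim1, a kinase, rose by 1.63 (adjusted p = 0.0053). Of 6 other bZIP genes related to C/EBP and NFIL3, 1 rose and 0 fell. It was Ddit3, the stress-induced relative of C/EBP also called CHOP, at 178 ± 70.5 CPM in hemin cells and 15.1 ± 1.11 CPM in vehicle cells (SD, n = 3 each, log2 fold change 3.55, adjusted p = 0.00076).

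Of 24 cytokines that activate STATs, 19 were listed and 5 tested, and 3 of those rose with hemin and 0 fell. That count is no support for a direction, since 4 of the 5 (Il6, Il11, Lif and Cntf) missed the filter's level in at least 1 vehicle library and passed through hemin-treated ones. Il11 averaged 9.85 ± 7.51 CPM in hemin cells and 0.278 ± 0.155 CPM in vehicle cells (SD, n = 3 each, log2 fold change 5.08, adjusted p = 0.000874). Cntf, a glial survival factor, averaged 7.86 ± 1.76 CPM in hemin cells and 1.15 ± 0.192 CPM in vehicle cells (SD, n = 3 each, log2 fold change 2.76, adjusted p = 0.00254). Il6 had 0.496, 1.43 and 0.701 CPM in hemin libraries and 0 reads in all vehicle libraries, so it was at least 9.42-fold higher against a floor of 3 reads over the vehicle group (adjusted p = 0.0207, up to 0.0702 with 1 library left out). Of 10 inflammatory and acute phase genes linked to C/EBP, 7 were tested, 4 rose and 0 fell. All 7 tested missed the filter's level in at least 1 vehicle library and passed through hemin-treated ones, so this count is no support either. The 4 were Il6, Ptgs2, which encodes cyclooxygenase-2, and the chemokines Cxcl1 and Ccl2. Ptgs2 averaged 136 ± 79.3 CPM in hemin cells and 0.769 ± 0.517 CPM in vehicle cells (SD, n = 3 each, log2 fold change 7.44, adjusted p = 0.00156). Ccl2 rose by 4.33 (adjusted p = 0.00755), and Cxcl1, with 0 reads in vehicle libraries, was at least 61.3-fold higher (adjusted p = 0.00183). No gene of the 6 lists passed with IL-10 against hemin or with stattic against IL-10.

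Genes moving most like Socs3, Cish, Cebpb and Nfil3 across the 12 libraries were ranked by Pearson's r of log2(CPM + 1). About 11000 genes of at least 5 CPM on average were compared. For Cebpb and Nfil3 the r values describe 12 libraries in which the 3 vehicle libraries stand apart, so they mostly follow that split. For Socs3 and Cish the vehicle libraries overlapped those with hemin and IL-10, and what their r values follow was not tested. Cish had only 14 to 41 reads per library. Cebpb was closest to Gem (0.99), a small GTPase, Hmox1 (0.99), whose product heme oxygenase-1 breaks down heme, and Dusp2 (0.99), a phosphatase of MAP kinases. Nfil3 was closest to Jdp2 (0.98), a bZIP repressor, Kcmf1 (0.97) and Csrnp1 (0.97). Socs3 was closest to Dipk2a (0.89), Kcnj2 (0.88), a potassium channel, and Fam107b (0.87). Cish was closest to Dennd3 (0.93), Tceal9 (0.91) and Tcf7 (0.91), a factor of Wnt signalling. Hmox1 rose by 7.18 on the log2 scale with hemin against vehicle (adjusted p = 0.000368), and its interval with IL-10 against hemin was -1.13 to 1.62.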

How the data were processed

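RNA-seq libraries from 12 samples of mouse primary oligodendrocyte progenitor cells were analysed in their 4 labelled groups. Per the labels' protocols, total RNA was reverse transcribed, dUTP was used in second-strand synthesis, and the libraries were read as DNA nanoballs. Tools named in the submitters' processing notes, without versions or roles, are RSEM, Bowtie, Bowtie2, HISAT, TopHat, StringTie, Cufflinks and CASAVA. Neither the genome build nor the use of strand in counting is stated in these sources, so reads of overlapping or antisense genes cannot be told apart. Per the file headers, the authors' deposited values are an expected count, an estimated number of reads that is not normalised, an FPKM value scaled for length and depth, and a length per gene. Each file holds only genes above 0, and an absent gene was taken as 0.

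Expected counts were rounded to whole numbers, filtered with filterByExpr, scaled by TMM and tested with edgeR 4.0.16 (quasi-likelihood, all 12 libraries in 1 fit, Benjamini-Hochberg over 13967 genes, threshold 0.05) in R 4.3.3. CPM values use TMM-scaled totals, and intervals are 95%. DESeq2 1.42.0 and limma 3.58.1 served as alternatives, and FPKM alternatives used log2(FPKM + 1) or log2(FPKM + 0.1) for genes of at least 0.5 FPKM in 3 libraries. The length correction is a loess fit per library, entered as an offset. The code was tested on simulated data. Promoter sequences and gene starts are from RefSeq on GRCm38.p6, matched by symbol.

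The text names the 10 genes, Il10ra, Il10rb, Jak1, Tyk2 and Stat3, up to 4 called genes of each list and comparison with the smallest adjusted p, and the 3 genes most like Socs3, Cish, Cebpb and Nfil3. The genes and lists were chosen with earlier results of these data known. The replicate numbers come from the sample titles, which do not say what they mark. Deviations from the group means correlated for same-numbered libraries at 0.42, 0.20 and 0.66 between the IL-10 and hemin groups. Between stattic and hemin they correlated at 0.35, 0.44 and 0.15, and between the stattic and IL-10 groups at 0.74, -0.10 and 0.50. Some differently numbered libraries were closer: IL-10 replicate 2 correlated at 0.25 with hemin replicate 1, and hemin replicate 3 at 0.35 with stattic replicate 2. The numbers are therefore not shown to pair the libraries, and whether same-numbered libraries were handled together was not tested. The edgeR fit reported has no block.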

Additional observations from a re-analysis of the deposited data

How the results depend on the processing

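Counts of the 10 genes called stayed within 1.5 times their reported value under all 11 other settings and without any 1 library, and no called gene of the 10 changed direction. Over the settings the count was 4 to 6 for hemin against vehicle, 3 to 5 for stattic against vehicle and 3 to 4 for hemin with IL-10 against vehicle. With 1 library left out it was 3 to 5, 3 to 5 and 3 to 4 in those comparisons. It was 0 throughout for IL-10 against hemin, stattic against IL-10 and stattic against hemin. Of 1380 values of single genes under alternatives, 21 lost a call, 14 gained one and 82 changed sign with neither value called. With the replicate number as a block, 5 of the 10 genes were called for hemin against vehicle, 5 for stattic against vehicle, 4 for hemin with IL-10 against vehicle and 0 in the other comparisons. All-gene calls in the first 3 were 4000, 4422 and 3929 with the block, and 2917, 3472 and 2927 without it. The block changed no call among the 10 genes for IL-10 against hemin or stattic against hemin. In none of the 6 comparisons did every library correlate best with its own number. Scaling by library totals moved the median of all genes to -0.07 for hemin, -0.13 for hemin with IL-10 and -0.14 for stattic against vehicle, where TMM gave 0.03, 0.00 and 0.10. All-gene calls behind the shares above moved more: for stattic against vehicle from 3472 to 1650 in a fit of these groups alone, and for hemin with IL-10 against vehicle from 2927 to 4546 without the libraries of steepest length trend. With 1 library left out they ran from 1309 to 4256 for hemin against vehicle, 1608 to 3864 for stattic against vehicle and 1202 to 4227 for hemin with IL-10 against vehicle. Socs1 had 6 to 53 reads per library, Cish 14 to 41, and Cebpb 4 to 21 in vehicle libraries.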
